A study of Mus musculus with 47 samples.

Results

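The enzymes that make serine, run the mitochondrial branch of folate metabolism and make proline were followed through cuprizone demyelination and recovery in the mouse brain. Members were the rows of 8 listed symbols, *Phgdh*, *Psat1*, *Psph*, *Shmt2*, *Mthfd2*, *Aldh1l2*, *Aldh18a1* and *Pycr1*, out of 23393 genes in the acute table and 21034 in each chronic table. All 8 were found in both, and all 8 passed the filters on low values, which left 14536 acute and 17054 chronic genes to test. The symbols were listed as enzymes known to be induced by mitochondrial stress.

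RNA of whole tissue was sequenced from wild type C57BL/6 mice of both sexes that received cuprizone, a copper chelator that kills oligodendrocytes, in their chow. The acute set was corpus callosum (CC): 3 libraries after 3 weeks of cuprizone and 3 after 5 weeks of cuprizone and 1 week of recovery (5 + 1 weeks). Its 1 naive library came from a mouse labelled female and 2 months old. Both acute cuprizone groups held both sexes, so sex and cuprizone cannot be fully told apart in acute differences from naive. By the study's methods the diet began at about the age on this naive label, so the acute cuprizone mice were older when taken. Age and cuprizone cannot be told apart there either. The chronic set held 12 libraries of CC, 13 of hippocampus (HP) and 15 of cortex (CTX). Mice received cuprizone for 12 weeks and were taken then or after 4, 8 or 12 weeks of recovery (12 + 4, 12 + 8 and 12 + 12 weeks). These groups held 2, 2, 3 and 2 libraries in CC, 3, 3, 2 and 2 in HP and 3, 3, 3 and 2 in CTX. Chronic naive mice, labelled 8 months old, gave 3, 3 and 4 libraries. The labels give no age for the cuprizone mice. By the study's methods they were young adults when the diet began, so mice taken at 12 weeks were younger than the chronic naive mice and came nearer to their age in recovery. Age and cuprizone cannot be told apart, and neither can age and recovery. Each 12 + 12 weeks group was labelled female only.

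Deposited values were on a log2 scale, where a difference of 1 is a 2-fold change. Without counts the depth behind a value is unknown. Chronic values were centred for each gene on a level shared by the 3 regions, so they compare libraries but not genes. By the study's methods CTX and the acute CC were sequenced with shorter reads on another instrument than chronic CC and HP, so region and platform cannot be told apart where CTX is compared. Of 13 HP libraries, 8 carried sex-linked transcripts at levels between those of the sexes, against 0 in CC and CTX. Their *Xist* ran from −2.37 to −1.23, where CC and CTX medians were −5.04 in males and 2.74 in females. The midpoint of these medians is −1.15, and an equal mix of RNA would give 1.75. Whether values of male and female mice were averaged was not tested. The labelled sex of these 8, such as replicate 1 at 12 + 12 weeks, labelled female, may not describe 1 mouse. In the acute set differences between 5 + 1 and 3 weeks followed the GC content of transcripts (Spearman rho 0.764 across 13674 genes). Those between 5 + 1 weeks and naive did so too (rho 0.763). Nothing says which libraries came from the same mouse, so p-values measure the spread between libraries. The fits treated libraries as independent, also across regions. In chronic CC and HP, but not CTX, each deposited value appears to be a mean of 2 values, as described under processing. What was averaged is unknown, so a library there may not be a single replicate. The chronic fit pooled the spread of these values with that of CTX. In bulk tissue fewer cells of a type and less RNA per cell cannot be told apart.

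Serine is built from a glycolytic intermediate by phosphoglycerate dehydrogenase (*Phgdh*), phosphoserine aminotransferase (*Psat1*) and phosphoserine phosphatase (*Psph*). In the mitochondrion serine hydroxymethyltransferase (*Shmt2*) moves a carbon unit from serine to tetrahydrofolate, *Mthfd2* oxidises that unit to formyl-tetrahydrofolate, and *Aldh1l2* oxidises it on to carbon dioxide, which yields NADPH. Proline is made from glutamate by pyrroline-carboxylate synthase (*Aldh18a1*) and pyrroline-carboxylate reductase (*Pycr1*). Many of these genes are known targets of ATF4, the transcription factor of the integrated stress response, which mitochondrial damage can start. In the adult brain astrocytes are the main site of *Phgdh*, and the serine they make is also the precursor of the NMDA receptor co-agonist D-serine.

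On GRCm38 the members lie on 6 chromosomes, all on the minus strand by the GENCODE annotation. The serine genes are *Phgdh* at chr3:98313170-98339990, *Psat1* at chr19:15904678-15947337 and *Psph* at chr5:129765558-129787449. The mitochondrial folate genes are *Shmt2* at chr10:127517123-127522444, *Mthfd2* at chr6:83305691-83325908 and *Aldh1l2* at chr10:83487450-83534140. The proline genes are *Aldh18a1* at chr19:40550257-40588463 and *Pycr1* at chr11:120635712-120643769.

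The C/EBP-ATF response element, the DNA letters that ATF4 binds with a C/EBP partner, was searched as TGATGNAA on both strands in the 250 bases before the start of transcription (RefSeq, GRCm38.p6). Of the members 7 had a promoter entry and 1, *Pycr1*, held the letters, 103 bases before its start. Over all 32851 promoters 3.45% held them. Of 25 integrated stress response genes with an entry, from the list used below, 9 did. With the longer form TGATGNAAN the numbers for the members and the stress list were equal and the share of all promoters was 3.44%. The windows of *Pycr1* (chr11:120643749-120643998, minus strand) and of *Mthfd2* (chr6:83317605-83317854, minus strand), the member whose level followed the stress genes most closely, are shown with the match in capitals. The RefSeq start of *Mthfd2* lies inside the GENCODE span.
Pycr1: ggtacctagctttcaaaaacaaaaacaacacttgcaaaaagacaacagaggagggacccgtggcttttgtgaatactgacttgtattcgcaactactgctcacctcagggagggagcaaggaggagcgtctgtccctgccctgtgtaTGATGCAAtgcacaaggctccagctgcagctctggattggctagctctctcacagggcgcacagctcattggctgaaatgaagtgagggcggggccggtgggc
Mthfd2: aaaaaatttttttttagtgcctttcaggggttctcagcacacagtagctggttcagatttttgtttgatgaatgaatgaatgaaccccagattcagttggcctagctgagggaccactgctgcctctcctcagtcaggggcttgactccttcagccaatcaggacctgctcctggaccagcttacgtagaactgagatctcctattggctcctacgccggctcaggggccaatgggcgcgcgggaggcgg
A match is a description of letters, not of binding.

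The first comparison asked what 3 weeks of cuprizone did to these enzymes in the CC. The clearest difference was *Aldh1l2*. Its values were 7.12, 7.29 and 7.30 at 3 weeks, 6.23, 6.66 and 6.24 at 5 + 1 weeks and 6.14 in the naive library. The 3-week libraries lay above the 4 others without overlap. Taken singly, 36.1% of all genes were higher than naive without overlap, and 22.8% were lower at 5 + 1 than at 3 weeks. No share of all genes was taken over both together. The difference from naive was 1.09 ± 0.27 (log2, ± standard error, 3 against 1 library), which is 2.13-fold. It was not called (limma, Benjamini-Hochberg adjusted p = 0.459). A gene was called when this adjusted p over all tested genes was below 0.05.

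*Mthfd2* read 7.90, 7.42 and 7.57 at 3 weeks, 7.12, 6.85 and 7.22 at 5 + 1 weeks and 7.15 in the naive library. Its 3-week libraries also lay above all others, by 0.48 ± 0.28 over naive and 0.57 ± 0.20 over 5 + 1 weeks (adjusted p = 1.00 and 0.187). *Shmt2* and *Aldh18a1* lay 0.42 ± 0.33 and 0.40 ± 0.25 above naive, and *Pycr1* 0.22 ± 0.29. Of the serine genes *Phgdh* lay at 0.19 ± 0.35, *Psat1* at 0.09 ± 0.23 and *Psph* at 0.29 ± 0.24. For all 8 members the naive library lay below the 3 libraries at 3 weeks, which was so for 36.1% of all tested genes.

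None of the 8 members was called at 3 weeks, where 0% of 14536 genes were and 668 had an unadjusted p below 0.05. For the lone naive library the spread of the other 2 groups was taken. Their median difference was 0.35, against 0.018 over all genes. Of 28 other serine, glycine and folate genes none was called, with a median of 0.19. The largest values there were *Slc1a5*, a transporter of neutral amino acids, at 1.22, *Sds* at −1.10 and *Slc1a4*, another such transporter, at 0.75. The median of 28 integrated stress response genes was 0.45, led by *Cdsn* at 2.35, the stress factor *Nupr1* at 2.21 and *Atf3* at 1.90, none called. Cell type markers differed in the same libraries: the mean log2 level of 14 mature oligodendrocyte markers was 8.21 to 9.90 at 3 weeks and 11.20 in the naive library, and that of 12 microglia and macrophage markers was 9.53 to 9.59 and 8.47. The mean of 8 proliferation markers was 6.34 to 6.82 at 3 weeks and 5.50 in the naive library, and that of 12 astrocyte markers 11.34 to 11.43 and 11.12. Their part in the members' values was not tested.

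**Figure D1:**
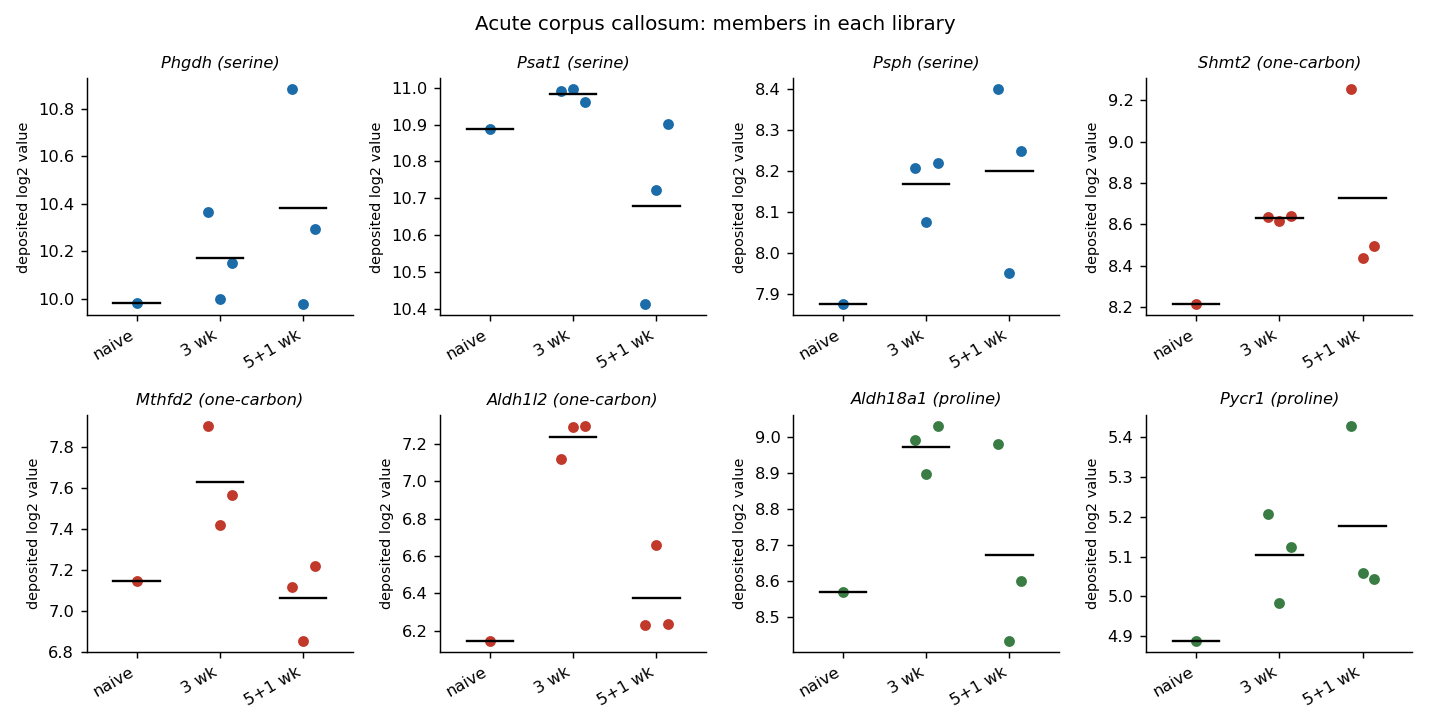
Deposited log2 value (vertical axis, a scale of its own in each panel) of each member in the 7 acute CC libraries, by group. Points are libraries and bars group means; for *Aldh1l2* and *Mthfd2* the 3 points at 3 weeks lie above all others.

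After 1 week of recovery *Aldh1l2* lay 0.86 ± 0.19 below its 3-week level (3 against 3 libraries, adjusted p = 0.159). *Aldh18a1*, with 8.99, 8.90 and 9.03 at 3 weeks and 8.98, 8.43 and 8.60 at 5 + 1 weeks, differed by −0.30 ± 0.18 and overlapped. *Psat1* read 10.992, 10.996 and 10.960 at 3 weeks and 10.413, 10.723 and 10.902 at 5 + 1 weeks, a difference of −0.30 ± 0.16 (adjusted p = 0.262). Lower than at 3 weeks without overlap were 3 of 8 members, *Psat1*, *Mthfd2* and *Aldh1l2*, against 22.8% of all genes. *Phgdh*, *Psph*, *Shmt2* and *Pycr1* differed by 0.21, 0.03, 0.10 and 0.07. Over all genes differences in this comparison followed GC content (Spearman rho 0.764). GC content of the longest transcript was 47.7% in *Aldh1l2*, 48.4% in *Psat1* and 49.6% in *Psph* and in *Mthfd2*. It was 53.7% in *Aldh18a1*, 53.8% in *Pycr1*, 57.2% in *Phgdh* and 57.4% in *Shmt2*. In *Phgdh*, *Psph*, *Shmt2* and *Pycr1* replicate 1 of the 5 + 1 weeks group was the highest of all 7 libraries, and in *Psat1* the lowest.

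No member was called between 5 + 1 and 3 weeks, nor was any of 14536 genes (0%), while 3515 had an unadjusted p below 0.05. Without replicate 1 of the 5 + 1 weeks group *Aldh1l2* and *Aldh18a1* were called lower than at 3 weeks, at −0.79 and −0.46 (limma adjusted p = 0.0332 and 0.0340), where 11.7% of all genes were called. At 5 + 1 weeks the mean level was 10.91 to 11.36 for oligodendrocyte markers, 9.33 to 9.47 for microglia and macrophage markers, 4.86 to 5.44 for proliferation markers and 11.18 to 11.29 for astrocyte markers. Each of these ranges lay apart from that at 3 weeks. So did that of 8 oligodendrocyte progenitor markers (7.83 to 8.13, against 8.18 to 8.23 at 3 weeks). The same held for 8 endothelial and mural markers (7.998 to 8.334, against 8.337 to 8.513), and 11 neuron markers overlapped. The part of these cells in the members' values was not tested. The 28 stress genes had a median of −0.30 here, led by *Slc7a11*, the cystine transporter, at −1.9996, *Nupr1* at −1.65 and *Trib3*, a pseudokinase, at −1.60. Against naive, 5 + 1 weeks gave between −0.21 (*Psat1*) and 0.52 (*Shmt2*), with no member called (0.00688% of all genes).

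Column order matters for these values. Columns of the acute table were grouped by the headers of the same sheet in the study's supplement, with equal values in 1999 of 1999 shared genes. Sex-linked genes matched the labelled sex in 6 of 7 libraries under this order and in 2 of 7 under the order of the sample labels. Under the label order the 3-week difference from naive was −0.18 for *Aldh1l2* and −0.54 for *Mthfd2*, none called.

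At 12 weeks of cuprizone the serine genes fell in the CC, and the mitochondrial folate and proline genes did not pass the test. *Psat1* read −0.12 and −0.16 at 12 weeks and 0.66, 0.38 and 0.22 in the naive libraries. It fell by 0.56 ± 0.12, to 0.679 of naive (2 against 3 libraries, limma adjusted p = 0.00172). *Phgdh* read 0.18 and −0.01 against 0.93, 0.48 and 0.50 and fell by 0.55 ± 0.16 (adjusted p = 0.0138). *Psph* read −0.11 and −0.20 against 0.51, 0.19 and 0.14 and fell by 0.43 ± 0.12 (adjusted p = 0.0145). In all 3 genes both 12-week libraries lay below every naive one, and naive replicate 1 was the highest.

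These were 3 of 8 members called lower and 0 higher, where 18.7% of all 17054 genes were called, 9.65% lower and 9.06% higher. The 3 genes without overlap stand against 25.1% of all genes lower without overlap. The call of *Phgdh* and *Psph* was lost without naive replicate 1 (adjusted p = 0.0921 and 0.0954) and without 12-week replicate 2 (0.165 and 0.137). *Psph* was also lost without 12-week replicate 1 (0.0636). With only the compared groups in the fit none of the 3 was called (*Psat1* 0.0632, *Phgdh* 0.0865, *Psph* 0.0957), and with a fit for each region *Phgdh* was not (0.0885). Differences in this comparison followed transcript length (Spearman rho 0.399 across 16564 genes), and all 3 genes stayed called after correction for length and GC content, at −0.50, −0.47 and −0.40 for *Psat1*, *Phgdh* and *Psph*.

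Mature oligodendrocyte markers moved in the same libraries. Of 14 markers, such as *Mobp*, *Mbp* and *Mal*, 12 were called lower at 12 weeks. The mean centred log2 level of the 14 ran from −0.27 to −0.21 in the 12-week libraries and from 0.38 to 1.48 in the naive ones. Of 12 astrocyte markers 2 were called lower, *S100b* at −0.85 and *Sox9* at −0.57, and their mean level ran from −0.28 to −0.20 at 12 weeks and from −0.14 to 0.15 in naive libraries. Whether cell makeup set the level of the serine genes was not tested.

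The other 5 members lay above naive in value, and none was called. *Aldh1l2* read 0.61 and 0.09 at 12 weeks and 0.18, −0.00 and −0.05 in naive libraries, a difference of 0.31 ± 0.15 (adjusted p = 0.16). *Mthfd2* read 0.72 and −0.10 against 0.29, 0.02 and −0.21, a difference of 0.28 ± 0.22 (adjusted p = 0.42). In both, replicate 1 at 12 weeks was the highest of the 5 libraries and replicate 2 lay within the naive range. The mean centred level of 29 integrated stress response genes ran from −0.030 to 0.23 at 12 weeks and from −0.033 to 0.042 in naive libraries, with overlap. *Pycr1* lay at 0.30 ± 0.21, *Aldh18a1* at 0.09 ± 0.13 and *Shmt2* at 0.07 ± 0.12, with overlapping groups.

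Of 30 other serine, glycine and folate genes 4 rose and 2 fell at 12 weeks, 6 in all, where 18.7% of all genes were called. *Mthfd1l*, the mitochondrial synthetase that releases formate, rose by 0.66, and *Mtr* and *Srr*, the racemase that makes D-serine, by 0.51 and 0.37. *Gldc*, of the glycine cleavage system, and *Ggh*, which trims folates, fell by 0.45 and 0.39. Of 14 other proline and glutamate genes 4 fell, with *Oat*, ornithine aminotransferase, at −0.39, *Glud1*, glutamate dehydrogenase, at −0.38, *Pycrl*, a paralog of *Pycr1*, at −0.32 and *P4ha1* at −0.31. Among paralogs of the mitochondrial folate genes *Shmt1* lay at −0.14, *Aldh1l1* at −0.14, *Mthfd2l* at −0.06 and *Mthfd1* at −0.05, none called.

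**Figure D2:**
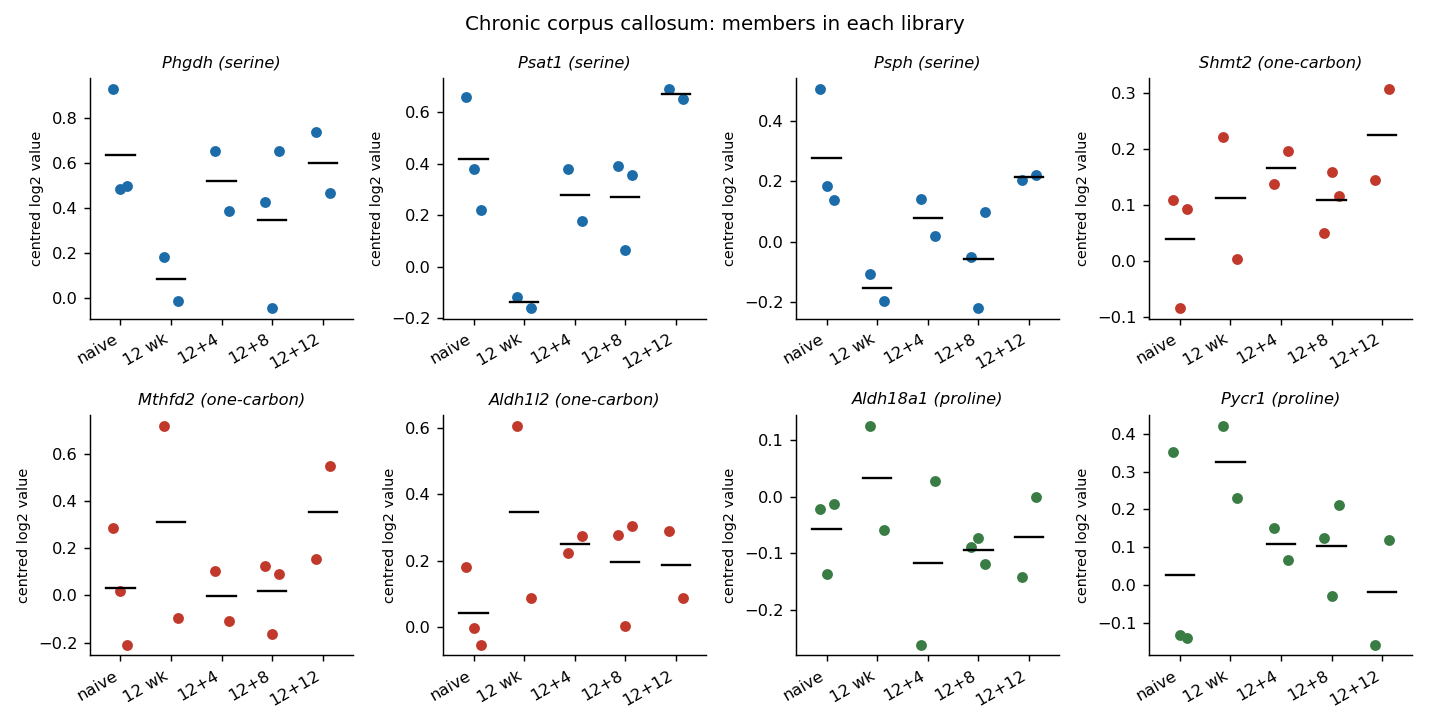
Centred log2 value (vertical axis, a scale of its own in each panel) of each member in the 12 chronic CC libraries, by group. Points are libraries and bars group means; *Phgdh*, *Psat1* and *Psph* have both 12-week points below all naive points.

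*Psat1* rose again in recovery. It read 0.38 and 0.18 at 12 + 4 weeks, 0.39, 0.07 and 0.35 at 12 + 8 weeks and 0.69 and 0.65 at 12 + 12 weeks. All 7 recovery libraries lay above both 12-week ones. With each of the 3 times taken singly, 25.1%, 14.3% and 24.3% of all genes were higher without overlap. No share was taken over the 3 times together. The difference from 12 weeks was 0.42 ± 0.13 and 0.41 ± 0.12 at the first and second time (adjusted p = 0.129 and 0.111), not called. It was called at 12 + 12 weeks, where *Psat1* rose by 0.81 ± 0.13, or 1.75-fold (2 against 2 libraries, limma adjusted p = 0.000230). Without replicate 2 at 12 + 8 weeks *Psat1* was called there too, at 0.51 (adjusted p = 0.0295; 1.07% of all genes). These comparisons share their 12-week libraries. The call at 12 + 12 weeks was lost with only the compared groups in the fit and with a fit for each region (adjusted p = 0.0517 and 0.0528) and held with sex as a covariate and without any of the 4 libraries.

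*Phgdh* read 0.65 and 0.39, then 0.43, −0.04 and 0.65, then 0.74 and 0.47 at the 3 recovery times. Its replicate 2 at 12 + 8 weeks lay below the 12-week libraries, and the 6 others lay above them. At 12 + 12 weeks the difference was 0.52 ± 0.17 (adjusted p = 0.0853). *Psph* read 0.20 and 0.22 at that time, 0.37 ± 0.13 above 12 weeks (adjusted p = 0.134). The 5 other members lay between −0.34 (*Pycr1*) and 0.11 (*Shmt2*). *Pycr1* read 0.42 and 0.23 at 12 weeks, and its 7 recovery libraries, from −0.16 to 0.21, all lay below. The differences were −0.22, −0.22 and −0.34 at the 3 times (adjusted p = 0.808, 0.965 and 0.514). With each time taken singly, 27.9%, 16.2% and 26.6% of all genes were lower without overlap.

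Called were 0 of 8 members at 12 + 4 weeks (0.809% of all genes, 0.762% higher and 0.0469% lower), 0 at 12 + 8 weeks (0.756%, 0.674% higher and 0.0821% lower) and 1 at 12 + 12 weeks (4.22%, 2.74% higher and 1.48% lower). Of the oligodendrocyte markers 10, 7 and 13 of 14 rose at the same times. Their mean level ran from 0.69 to 1.34, from 0.43 to 1.07 and from 0.98 to 1.298, above both 12-week libraries. The astrocyte mean ran from 0.038 to 0.091 at 12 + 4 weeks, from −0.31 to −0.14 at 12 + 8 weeks and from −0.081 to 0.039 at 12 + 12 weeks, above the 12-week libraries at the first and last time only. That of 8 endothelial and mural markers ran from −0.17 to −0.028 at 12 weeks and then from 0.25 to 0.30, from −0.16 to −0.10 and from 0.041 to 0.083. The mean of 11 neuron markers ran from −0.037 to 0.042 at 12 weeks and lay lower at 12 + 4 weeks (−0.30 to −0.17) and 12 + 12 weeks (−0.20 to −0.18). For 8 oligodendrocyte progenitor markers it ran from −0.19 to 0.0032, then lay higher at the same times (0.11 to 0.17 and 0.118 to 0.127). Microglia and macrophage markers lay higher at 12 + 4 weeks only (0.19 to 0.46 against −0.097 to 0.070). Proliferation markers lay lower at 12 + 12 weeks only (−0.13 to −0.064 against 0.20 to 0.48). The part of these cells in the members' values was not tested. In the pathway *Mthfd1l* fell by 0.82 and 0.62 at 12 + 4 and 12 + 8 weeks, and at 12 + 12 weeks *Cbs*, which draws serine into cysteine synthesis, rose by 0.54, *P4ha1*, which hydroxylates proline in collagen, by 0.64, *Glul* by 0.49 and *Prodh*, which degrades proline, by 0.49. Averaged over the 3 recovery groups no member differed from naive by a called amount (26.4% of all genes), with values between −0.20 ± 0.09 (*Psph*) and 0.17 ± 0.11 (*Aldh1l2*).

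In the HP none of the serine genes was called at 12 weeks, with *Phgdh* at 0.07 ± 0.14, *Psat1* at 0.02 ± 0.10 and *Psph* at 0.14 ± 0.11. The largest value was that of *Mthfd2*, which read −0.05, 0.63 and 0.69 at 12 weeks and −0.27, −0.17 and −0.36 in naive libraries. All 3 lay above naive, as did 11.1% of all genes, and replicate 1 lay near it. The difference was 0.69 ± 0.20 (3 against 3 libraries, adjusted p = 0.636). *Aldh18a1* read −0.14, 0.28 and 0.39 against −0.06, −0.13 and −0.21, a difference of 0.31 ± 0.12, and *Aldh1l2* −0.11, 0.41 and 0.22 against 0.04, −0.11 and −0.16, a difference of 0.25 ± 0.13. In both the groups overlapped through replicate 1.

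Replicate 1 stood apart from the other 12-week HP libraries in the stress genes as well. The mean level of 29 integrated stress response genes was 0.01 in it and 0.30 and 0.38 in the others, against −0.09 to −0.05 in naive libraries. At 12 + 4 weeks the order was turned: *Mthfd2* read 0.29 in replicate 1 and −0.31 and −0.42 in the others, and the stress mean 0.15 against −0.11 and −0.08. Replicates 1 and 3 of both groups were among the 8 HP libraries with sex-linked transcripts between the sexes, and replicates 3 lay with replicates 2 in *Mthfd2* and in the stress mean. Without replicate 1 at 12 weeks *Mthfd2* differed by 0.93 and *Aldh18a1* by 0.47 (adjusted p = 0.0757 and 0.155). Without the 8 libraries, with 1 library at 12 weeks and 2 naive, the values were 0.85 and 0.37, not called.

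No member was called in the HP at 12 weeks, where 0.0176% of all genes were, 3 in number and all higher. *Nupr1* and *Atf5*, a transcription factor of the mitochondrial stress response, were 2 of those, at 1.65 and 1.40 (limma adjusted p = 0.0489 and 0.0375). No other serine, folate or proline gene was called, and *Mthfd1l* had the largest value, 0.39. The oligodendrocyte marker mean ran from −1.22 to −0.66 at 12 weeks and from −0.57 to −0.31 in naive libraries, and its part in these values was not tested. After recovery *Mthfd2* lay 0.57, 0.63 and 0.53 below its 12-week level at 12 + 4, 12 + 8 and 12 + 12 weeks and *Aldh1l2* 0.19, 0.53 and 0.35 below. None was called (0.041%, 0% and 2.57% of all genes, the last 1.41% higher and 1.16% lower; at 12 + 8 weeks 1418 genes had an unadjusted p below 0.05). At 12 + 12 weeks *Nupr1*, *Atf5*, *Slc7a11* and *Gdf15* fell by 1.50, 1.40, 1.16 and 1.01, and the oligodendrocyte marker mean ran from 0.012 to 0.48.

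In the CTX *Aldh1l2* came closest to a call. It read 0.00, 0.04 and 0.32 at 12 weeks and −0.36, −0.47, −0.46 and −0.17 in naive libraries, without overlap. The difference was 0.49 ± 0.13 (3 against 4 libraries, adjusted p = 0.0520). *Mthfd2* read 0.13, 0.68 and 0.09 against −0.30, 0.04, −0.12 and −0.06, also without overlap, a difference of 0.41 ± 0.19 (adjusted p = 0.259). *Shmt2* lay 0.25 ± 0.10 and *Aldh18a1* 0.20 ± 0.11 above naive, *Phgdh* at 0.16, *Pycr1* at 0.03, *Psph* at −0.09 and *Psat1* at −0.15. Higher without overlap were 4 of 8 members, *Phgdh*, *Shmt2*, *Mthfd2* and *Aldh1l2*, against 4.94% of all genes, and *Psat1* was lower without overlap, against 7.66%.

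None of the 8 was called (0.956% of all genes, 0.416% higher and 0.539% lower). Correction for length and GC content called *Aldh1l2* (adjusted p = 0.0388), and the other alternatives did not, with adjusted p from 0.0505 to 0.289. In the stress list *Atf5* and *Gdf15*, a secreted stress hormone, rose by 1.28 and 0.99, and in the pathway *Slc1a5* rose by 0.61. Of 12 microglia and macrophage markers *Itgax* and *Cd68* rose, by 1.61 and 0.56. Their mean level ran from −0.03 to 0.055 at 12 weeks and from −0.36 to −0.0016 in naive libraries. That of 8 proliferation markers ran from −0.039 to 0.0061 and from −0.38 to −0.26, without overlap and with none called. The oligodendrocyte marker mean ran from −0.81 to −0.67 and from −0.67 to −0.35. The part of these cells in the members' values was not tested. In recovery at 12 + 12 weeks *Mthfd2* lay at −0.64 ± 0.22 and *Shmt2* at −0.37 ± 0.12 from 12 weeks (2 against 3 libraries, adjusted p = 0.0889 and 0.0600). Lower than at 12 weeks without overlap were 5 of 8 members, *Phgdh*, *Psph*, *Shmt2*, *Mthfd2* and *Aldh1l2*, against 18.8% of all genes. In the same 12 + 12 libraries the mean of microglia and macrophage markers ran from −0.34 to −0.33, that of proliferation markers from −0.32 to −0.10 and that of endothelial and mural markers from −0.27 to −0.089 (−0.04 to 0.14 at 12 weeks), all below the 12-week libraries. The astrocyte mean lay above them (0.134 to 0.138 against 0.021 to 0.094). The part of these cells was not tested. No member was called at 12 + 4, 12 + 8 or 12 + 12 weeks (0.0528% of all genes, 0.0176% higher and 0.0352% lower; 0.123%, 0.0586% higher and 0.0645% lower; 4.69%, 2.52% higher and 2.17% lower). Without replicate 3 at 12 + 8 weeks *Aldh1l2* was called lower than at 12 weeks, at −0.58 (adjusted p = 0.0273; 3.76% of all genes). *Atf5* fell by 1.43, *Gdf15* by 1.16 and *Slc1a5* by 0.64 at 12 + 12 weeks.

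**Figure D3:**
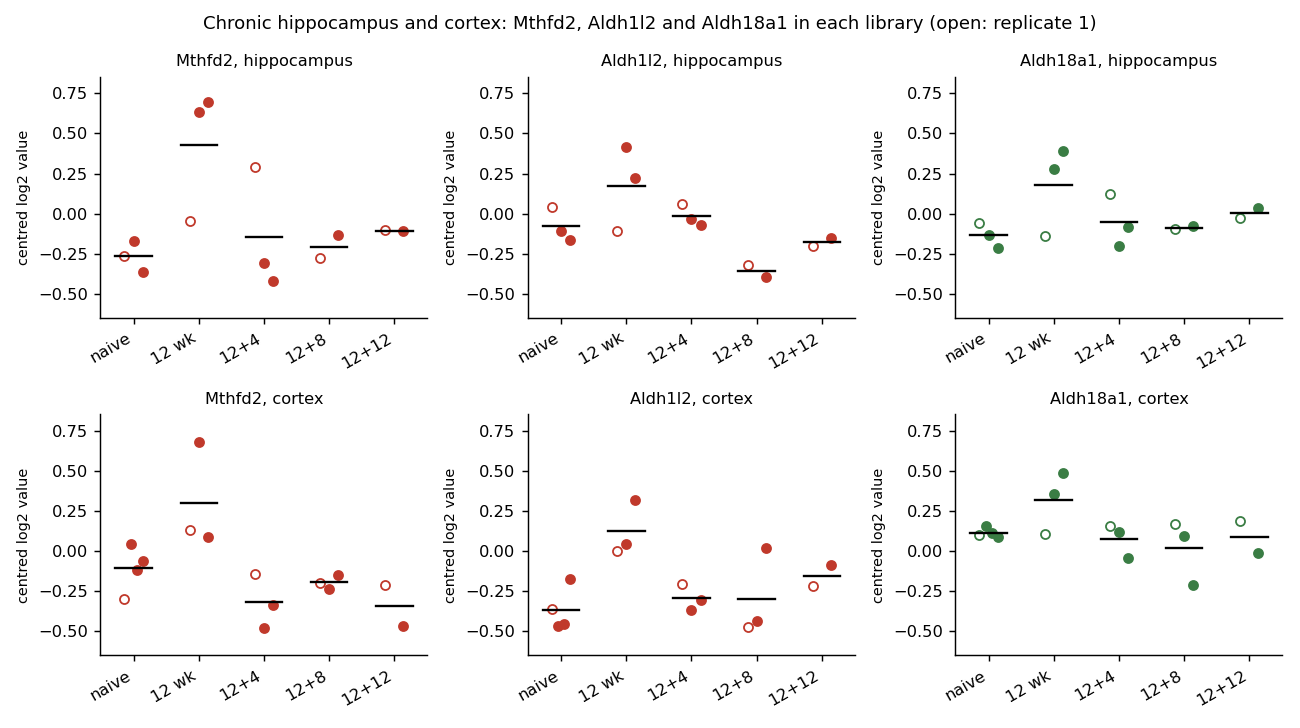
Centred log2 value (vertical axis) of *Mthfd2*, *Aldh1l2* and *Aldh18a1* in the 13 HP and 15 CTX libraries, by group. Points are libraries, open points replicate 1, and bars group means. In the HP replicate 1 lies lowest at 12 weeks in each gene, and for *Mthfd2* it lies apart at 12 + 4 weeks too.

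Whether the 12-week effect differed between regions was tested directly. For *Psat1* the CC effect minus the HP effect was −0.57 ± 0.16, for *Psph* −0.57 ± 0.16 and for *Phgdh* −0.62 ± 0.21 (limma adjusted p = 0.0557, 0.0681 and 0.110). CC minus CTX gave −0.71 ± 0.20 for *Phgdh*, −0.41 ± 0.15 for *Psat1* and −0.33 ± 0.16 for *Psph* (adjusted p = 0.0550, 0.131 and 0.238). No member was called in either, where 1.54% and 2.4% of all genes were, and none between HP and CTX, where 0% were and 1436 genes had an unadjusted p below 0.05. The comparisons share their CC libraries. *Psat1* against HP and *Phgdh* against CTX were called under a stricter filter, with adjusted p of 0.0481 and 0.0494. Without naive CC replicate 3 *Psat1* and *Psph* were called against HP (0.0288 and 0.0495), and *Phgdh* was called against CTX without naive CC replicate 2 or 3 or naive CTX replicate 2 (0.0365, 0.0459 and 0.0457). *Mthfd2*, *Aldh1l2* and *Aldh18a1* differed between regions by at most 0.41, with 95% intervals that all held 0, such as −1.02 to 0.20 for *Mthfd2* between CC and HP.

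**Figure D4:**
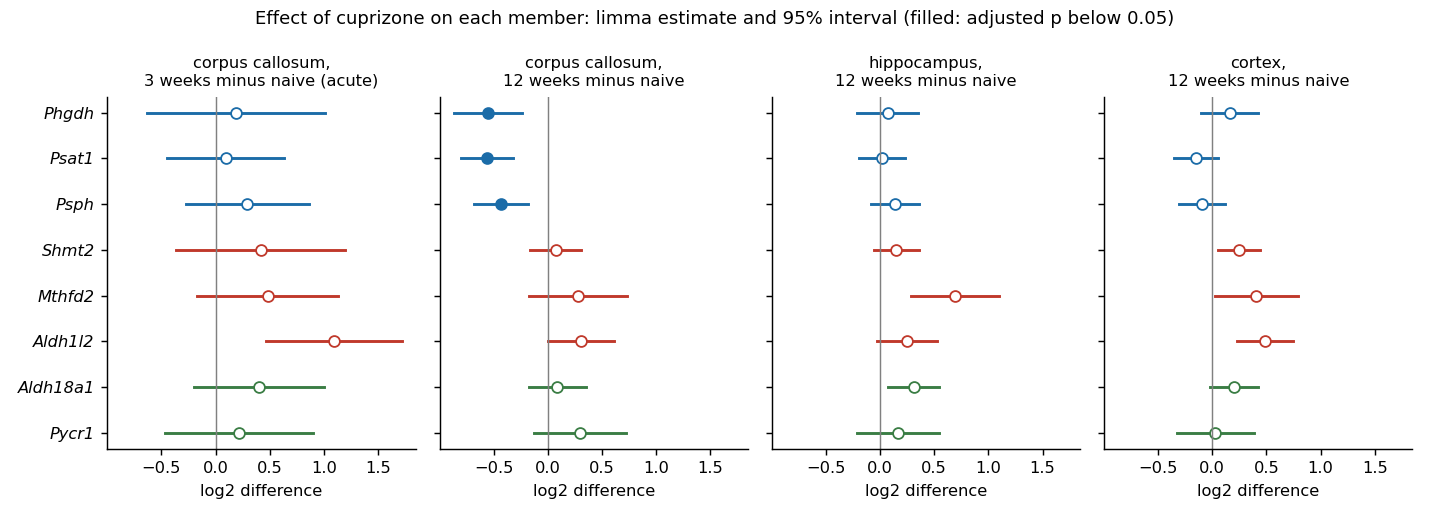
Log2 difference (horizontal axis) of each member at 3 weeks (acute CC) and 12 weeks of cuprizone (CC, HP and CTX) from naive. Points are limma estimates, lines 95% intervals and filled points called genes; only *Phgdh*, *Psat1* and *Psph* in the chronic CC are filled.

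The acute and chronic effects in the CC were set against each other in a fit of both tables. For *Psph* the effect at 3 weeks exceeded that at 12 weeks by 0.72 ± 0.21, from 0.29 at 3 weeks and −0.43 at 12 weeks. This was the 1 member called (limma adjusted p = 0.0430; 3.87% of 13947 genes, 2.82% higher). *Aldh1l2*, *Phgdh* and *Psat1* differed by 0.79, 0.74 and 0.65 (adjusted p = 0.0708, 0.173 and 0.0665). With the spread estimated separately in each table no member was called, *Psph* had an adjusted p of 0.516, and 29 genes were called in place of 540, with 1023 at an unadjusted p below 0.05. With acute columns in label order it was 0.45 (adjusted p = 0.487). Without single libraries *Psph* lost the call in 5 of 8 cases (3-week replicate 1 or 3, 12-week replicate 1 or 2, chronic naive replicate 1), with adjusted p from 0.0697 to 0.155. Of 28 stress genes 4 were called higher, *Cdsn*, *Eif4ebp1*, *Stbd1* and *Slc3a2*, and in the pathway *Slc1a5*, *Oat*, *Aldh1l1*, the cytosolic relative of *Aldh1l2* and an astrocyte marker, and *Slc1a4*, at 1.24, 0.61, 0.76 and 0.60. The tables differ in read length, age and the number of naive libraries, so these and exposure cannot be told apart.

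Naive regions differed most in *Phgdh*. Its centred level was 0.64 ± 0.25 in CC, 0.21 ± 0.10 in HP and −1.25 ± 0.11 in CTX (SD, n = 3, 3 and 4). CC lay 1.88 ± 0.13 and HP 1.46 ± 0.13 above CTX (limma adjusted p = 1.37e-12 and 4.21e-10) and CC 0.42 ± 0.14 above HP (adjusted p = 0.0310). No library of one region overlapped another, where 19.8%, 20.4% and 23.9% of all genes were higher without overlap in CC over HP, CC over CTX and HP over CTX. *Psat1* lay at 0.42 ± 0.22 in CC, −0.20 ± 0.049 in HP and −0.13 ± 0.032 in CTX. CC exceeded HP by 0.62 and CTX by 0.55 (adjusted p = 7.15e-05 and 4.97e-05), and HP and CTX differed by −0.07 (adjusted p = 0.575).

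*Psph* followed the order CC, HP, CTX at 0.28, 0.054 and −0.21, with CC over CTX by 0.49 and HP over CTX by 0.27 called (adjusted p = 0.000281 and 0.0344) and CC over HP not (0.176). *Shmt2* exceeded CTX by 0.33 in CC and 0.26 in HP, and *Aldh1l2* by 0.41 in CC (adjusted p = 0.00693, 0.0327 and 0.00988). *Mthfd2*, *Aldh18a1* and *Pycr1* were called in no pair of regions. With a library left out the call of *Psph* over CTX in HP held in 1 of 7 cases, that of *Shmt2* in 2 of 7 and that of *Phgdh* in CC over HP in 3 of 6 (adjusted p up to 0.121, 0.157 and 0.256). *Aldh1l2* held in 6 of 7 (0.0683 without naive CC replicate 1). With only the compared groups in the fit neither call of *Shmt2* held (0.0788 in CC and 0.0996 in HP), nor that of *Phgdh* in CC over HP (0.0704). Quantile normalization also ended the call of *Shmt2* in HP (0.102) and that of *Phgdh* in CC over HP (0.0571). Without the 8 HP libraries between the sexes *Shmt2* and *Psph* were not called in HP over CTX (0.0676 and 0.0764), nor *Phgdh* in CC over HP (0.0763). Differences followed transcript length (Spearman rho −0.505 for CC minus CTX and −0.419 for HP minus CTX across 16564 genes). All calls held after correction for length and GC content, but that correction was fitted to each library's deviation from its own region mean. It left trends between regions in place, so it cannot tell whether length or GC content bears on these calls. In all, 2 of 8 members were called higher in CC than HP (17.7% of all genes; 8.89% higher), 5 in CC than CTX (43.1%; 21.7% higher) and 3 in HP than CTX (40.6%; 20.9% higher). All 14 oligodendrocyte markers were higher in CC than in HP and in CTX. Of 12 astrocyte markers 1 was higher and 3 were lower in CC than in CTX.

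Correlations among the members were taken over the 40 chronic libraries. With region means subtracted, *Phgdh* and *Psph* had a Pearson r of 0.79, *Psat1* and *Psph* 0.63 and *Phgdh* and *Psat1* 0.61. *Mthfd2* had 0.69 with *Aldh18a1*, 0.66 with *Shmt2*, 0.60 with *Aldh1l2* and 0.48 with *Pycr1*. Between *Psat1* and the 5 genes outside the serine branch r lay between −0.24 and 0.14, between *Phgdh* and those 5 between 0.056 and 0.36, and between *Psph* and those 5 between −0.037 and 0.38. Over the 7 acute libraries, of 3 groups, *Phgdh* and *Psph* had an r of 0.86, but *Phgdh* and *Psat1* had −0.69 and *Psat1* and *Psph* −0.37. *Phgdh* had 0.92 with *Pycr1* and 0.89 with *Shmt2* there, and *Mthfd2* had 0.74 with *Aldh18a1*, 0.66 with *Aldh1l2* and 0.080 with *Shmt2*. Group means were subtracted from neither the chronic nor the acute values, here or in the r values that follow. Differences between the treatment groups thus remain in all of them, in the acute set with their trend in GC content. The points share libraries and their depth, so these values describe the libraries and carry no test.

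Within the CC, over 12 libraries, the mean of the 14 oligodendrocyte markers had an r of 0.91 with *Psat1*, 0.86 with *Phgdh* and 0.77 with *Psph*, and of 0.02 with *Mthfd2*. For *Mthfd2* it was −0.60 in the HP and −0.16 in the CTX, and for *Aldh18a1* −0.59, −0.54 and −0.44 in CC, HP and CTX. In the HP the value for *Psat1* was 0.59 and in the CTX 0.23, and those of *Phgdh* were −0.17 and 0.04, and of *Psph* −0.41 and 0.31. The mean of 12 astrocyte markers had an r of 0.59, 0.12 and −0.70 with *Phgdh* in CC, HP and CTX, of 0.59, 0.046 and −0.81 with *Psph* and of 0.47, 0.27 and −0.51 with *Psat1*. The mean of 12 microglia and macrophage markers had 0.61, 0.66 and 0.65 with *Phgdh*, 0.51, 0.52 and 0.34 with *Psph* and 0.26, 0.33 and −0.014 with *Psat1*. The sign of the astrocyte value turned between regions, and that of the microglia value did so in *Psat1* alone of the 3. The mean of 29 integrated stress response genes, none of them a member, had an r of 0.98 with *Mthfd2*, 0.94 with *Aldh18a1*, 0.91 with *Shmt2* and 0.85 with *Psph* over the 13 HP libraries. Over the 12 libraries of the CC and the 15 of the CTX the values were lower, at 0.74 and 0.76 for *Mthfd2*, 0.61 and 0.63 for *Aldh18a1*, 0.40 and 0.57 for *Shmt2* and 0.12 and 0.14 for *Psph*. In the HP the microglia and macrophage mean also had 0.74 with *Mthfd2*, 0.73 with *Shmt2* and 0.52 with *Aldh18a1* (0.0025, −0.074 and −0.35 in the CC). For *Psat1* the stress mean gave −0.17 in CC, 0.0034 in HP and −0.15 in CTX.

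**Figure D5:**
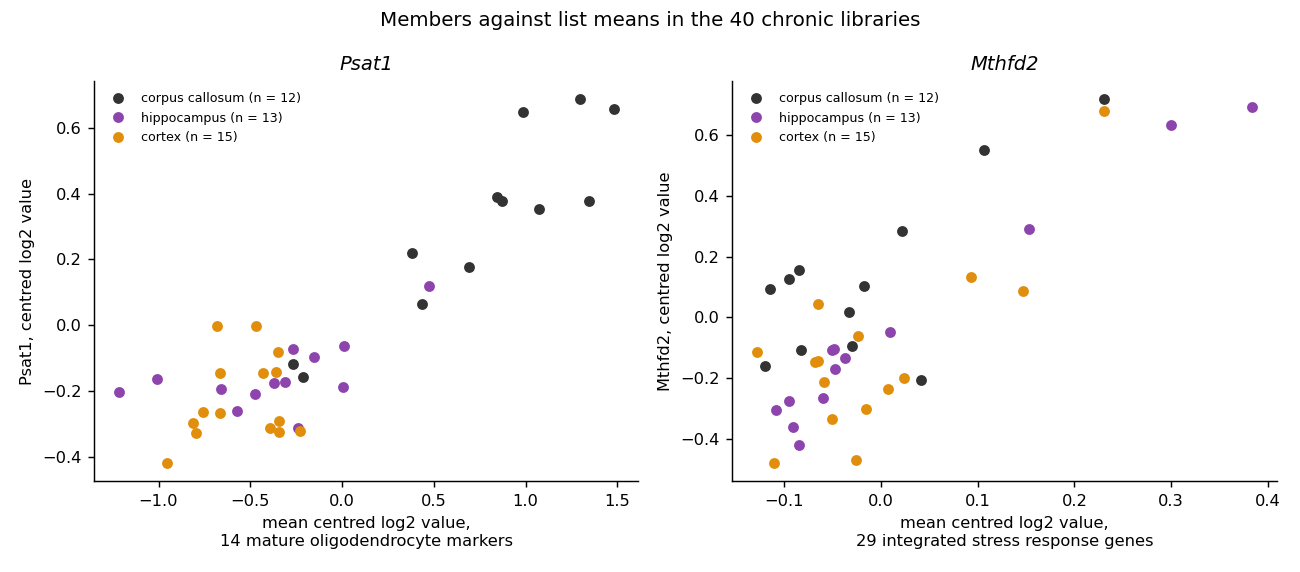
Centred log2 value of *Psat1* against the mean of 14 mature oligodendrocyte markers, and of *Mthfd2* against the mean of 29 integrated stress response genes (horizontal axes, mean centred log2 value). Points are the 40 chronic libraries, coloured by region; *Psat1* follows the marker mean over the 12 CC libraries, and *Mthfd2* the stress mean over the 13 HP libraries.

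Over all tested genes those most like *Mthfd2* in the 40 libraries were *Trib3*, *Eif4ebp1* and *Atf5* (r = 0.85, 0.81 and 0.81), and those most like *Aldh18a1* were *Trib3*, *Nupr1* and *Slc7a5* (0.80, 0.79 and 0.78). *Psat1* was closest to *Dbndd2*, *Tppp3* and *Gatm* (0.88, 0.86 and 0.84) and *Phgdh* to *Abhd4*, *Tmbim6* and *Apoe* (0.84, 0.81 and 0.81). *Psph* was closest to *Phgdh*, *Cst3* and *Syf2* (0.79, 0.78 and 0.78) and *Shmt2* to *Rnf215* and *Rab34* (0.78 and 0.77). *Aldh1l2* had *Cyb5r2*, *Stag1* and *Trim5* (0.77, 0.70 and 0.69). *Pycr1* had the weakest likeness, with *Zfp768*, *Mir1901* and *Rab10os* (0.59, 0.58 and 0.53).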

How the data were processed

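RNA of corpus callosum (acute and chronic), hippocampus and cortex was analysed in 47 libraries. The authors aligned reads with TopHat2 2.0.13 to GRCm38 and deposited log2 values of DESeq2-normalized counts, centred per gene in the 3 chronic tables. In CC and HP 44.0% of the deposited log2 values ended midway between steps of the ninth decimal, against 0% in CTX, so each appears to be a mean of 2 values. Names turned into dates (27 per table) were left out. Acute genes with a linear mean of at least 10, and chronic genes with at most 10 of 40 libraries at the lowest value, were tested in limma 3.58.1 (R 4.3.3), with 1 fit per table set (7 acute libraries with an intensity trend, 40 chronic libraries in 15 groups, 47 in the joint fit) and Benjamini-Hochberg adjustment over all genes. The fits were tested on simulated data. Chronic columns were matched to samples by name and acute columns to groups by the supplement's headers. Depth is unknown.

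Members, lists and comparisons were chosen with earlier results of these data known. Named were all members in every comparison, paralogs, up to 4 called genes per list or 3 where none was called, and the 3 genes most like each member. A few genes that this rule names are not reported here. *Mobp*, *Mbp*, *Mal* and examples shown for a second comparison follow that rule or were chosen after their values were seen. Alternatives covered filters, pseudocount, trend, robust fits, library weights, scaling, sex, a replicate block, which groups entered the fit, a loess (span 0.3) on length and GC content, acute column order and leaving out each library. Plots used Python 3.11.15 and matplotlib 3.10.9.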

Additional observations from a re-analysis of the deposited data

Results flagged for a closer look

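For *Psph* the 3-week effect in the acute CC and the 12-week effect in the chronic CC differed by 0.72 log2 units in a test of the difference itself (limma adjusted p = 0.0430). The 3 libraries at 3 weeks lay above the 1 naive library and both at 12 weeks below the 3 naive ones. The call rested on a spread shared by both tables (adjusted p = 0.516 with a spread for each).

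In the naive CTX *Psat1* read −0.15, −0.15, −0.14 and −0.080, and the value of −0.080 stood far from the 3 others relative to their narrow range. Of 8 such groups of 4 libraries, 1 for each member, this was the 1 that stood out. The rate by chance is about 1 in 20 for each single group, and thus higher for any 1 of the 8.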

How the results depend on the processing

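Counts are of members called, with the share of all genes called in the same fit in brackets. Library weights (whose estimation did not fully converge) gave 5 [19.1%] at 3 weeks against naive and 2 [17.6%] at 5 + 1 against 3 weeks. In CC they gave 2 [9.07%], 2 [10.5%] and 2 [6.39%] at 12 + 4, 12 + 8 and 12 + 12 weeks against 12 weeks. In HP they gave 4 [5.95%] at 12 weeks and 1 [1.27%], 2 [4.48%] and 2 [14.9%] at the 3 recovery times, and in CTX 2 [23.3%] at 12 + 8 weeks. For the 12-week effect they gave 3 [20.4%] (CC minus HP) and 1 [6.63%] (CC minus CTX), and for acute minus chronic 4 [35.2%]. Quantile normalization gave 1 [4.66%] and 1 [2.52%] (CC, 12 + 4 and 12 + 8 weeks), 2 [7.8%] and 2 [9.59%] (12-week effect, CC minus HP and minus CTX), 1 [25%] (naive CC minus HP) and 2 [6.78%] (acute minus chronic). With only the compared groups in the fit there was 1 [3.58%] at 3 weeks, *Aldh1l2*, where the spread came from the 3-week group alone. The same setting gave 0 [7.86%] in CC at 12 weeks and 0 [0.452%] at 12 + 12 weeks, 1 [10.5%] for the 12-week effect CC minus HP, 1 [17.4%] for naive CC minus HP and 0 [8%] for acute minus chronic. A stricter filter gave 1 [2.1%] and 1 [2.88%] for the 12-week effect, CC minus HP and minus CTX. Correction for length and GC content gave 1 [1.22%] (CC, 12 + 8 weeks), 1 [0.897%] (CTX, 12 weeks) and 3 [6.73%] (acute minus chronic). A fit for each region gave 0 [0.446%] in CC at 12 + 12 weeks. Leaving out the 8 HP libraries between the sexes gave 1 [12.3%] for naive CC minus HP and 1 [28.7%] for naive HP minus CTX. Acute minus chronic gave 0 with label order [0.0502%], with a pseudocount of 8 [2.77%] and with a separate spread [0.208%]. The cause of these shifts was not tested.

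Leaving out 1 library at a time (46 libraries) gave 0 to 2 members at 5 + 1 against 3 weeks, 1 to 3 in CC at 12 weeks, 0 to 1 in CC and 0 to 1 in CTX at 12 + 8 weeks, 0 to 2 and 0 to 1 for the 12-week effect, CC minus HP and minus CTX, 1 to 2, 4 to 5 and 1 to 3 for naive CC minus HP, CC minus CTX and HP minus CTX, and 0 to 2 for acute minus chronic. No call turned direction under 17 other alternatives or with a library left out. Of 3500 alternatives of the 185 values that were not called 61 were called, 30 of them under library weights. Between different times of a region, same-numbered libraries did not deviate alike from their group means (correlation −0.30 to 0.40 in CC, −0.67 to 0.25 in HP and −0.33 to 0.23 in CTX). Mice taken at different times are different mice, so this cannot show which libraries share a mouse. Whether the same number in CC, HP and CTX marks the same mouse was not examined. With the replicate block the count for naive HP minus CTX was 1 [23.5%] in place of 3, the call of *Shmt2* in naive CC over CTX was lost (adjusted p = 0.178), and *Phgdh*, *Psat1* and *Psph* in CC at 12 weeks stood at −0.51, −0.59 and −0.42. Leaving out HP libraries with both *Xist* and Y-linked genes above the midpoint selected 0 libraries and gave no value. The alternatives with a fit for each region, a separate spread and without the HP libraries between the sexes were chosen after seeing the data.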
